A study of Oryza sativa with 16 samples.

Results

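RAB21, rab25, LEA19 and Emp1 are 4 rice genes for late embryogenesis abundant (LEA) proteins, among the 17905 genes that the annotation of the Affymetrix GeneChip Rice Genome array pairs with a probe set of their own. Each was read by 1 of the 57381 probe sets on the array. In the gene table they are LOC4350454 (RAB21), LOC4326935 (rab25), LOC4339480 (LEA19) and LOC4338499 (Emp1). The 4 genes were chosen by their levels over the 8 conditions of the experiment, on the log2(signal + 16) scale, so every level and every difference of them is a description and carries no test. All 4 passed the filter on low signals that left 34331 probe sets for testing. Of the 9 LEA family genes that the gene table names, 8 had a probe set, and the 4 that were not chosen serve for comparison.

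LEA proteins are very hydrophilic proteins that accumulate as the seed matures and its embryo becomes tolerant of drying. They are found mainly in embryo and aleurone, and many of their genes also respond to abscisic acid (ABA), drought, salt or cold in vegetative tissue. RAB21 and rab25 are dehydrins, a LEA family with lysine-rich repeats. LEA19, also named LEA3-1, belongs to the LEA3 family, whose members fold into helices on drying, and Emp1 is the rice Em protein, whose gene is a classical target of ABA and of the seed transcription factor VP1.

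The arrays were hybridized with RNA of whole seeds of 2 japonica cultivars, Hanfeng (HF), which is cold tolerant, and Zhonghua 11 (ZH), which is cold sensitive. All plants grew at 28°C in the day and 22°C at night, and treated plants were moved to 14°C for 2 days. HF 4D-2DC, ZH 4D-2DC and ZH 10D-2DC are seeds treated from 4, 4 and 10 days after fertilization (DAF). Seeds at normal temperature are named HF 4D or, for ZH, ZH 4D to ZH 12D (at 4, 6, 10 and 12 DAF). Each of the 8 conditions had 2 arrays, 16 in all. The labels call them biological replicates but do not say that they came from separate plants, so the p-values measure only the spread between these arrays. HF 4D-2DC seeds were 2 days older than HF 4D seeds, and HF seeds at 6 DAF are not analysed here.

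Arrays of replicate 1 and of replicate 2 differed in scale in every condition. In replicate 1 the median signal of an array was 85.9 to 172 and its highest signal 87265 to 256780. In replicate 2 the median was 49.8 to 60.1 and the highest 35851 to 58670. Both arrays of a condition are therefore given for each gene, with replicate 1 first. The embryo was not separated from the rest of the seed, so the word embryo describes where such genes are known to act and was not checked on these arrays. In whole seeds, fewer cells of a type and less RNA per cell cannot be told apart.

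All 4 genes were near the bottom of their range in ZH seeds at 4 DAF and near the top at 10 and 12 DAF. RAB21 had log2 levels of 7.01 and 4.42 at ZH 4D, 12.21 and 9.21 at ZH 6D, 15.25 and 15.01 at ZH 10D, and 16.50 and 15.09 at ZH 12D. As linear signals these were 113 and 5.36 at ZH 4D and 92578 and 34816 at ZH 12D. The arrays of ZH 4D, ZH 6D and ZH 10D did not overlap, while those of ZH 10D and ZH 12D did, and the replicates lay far apart at the early ages and close together at ZH 10D. The level averaged 15.46 at ZH 10D and ZH 12D and 8.21 at ZH 4D and ZH 6D, a difference of 7.25 (standard error 1.23). The mean of 5.71 at ZH 4D lay under the level of 5.94 that the filter asked for as a mean over all arrays, and the difference was 7.74 with a pseudocount of 1 and 6.68 with one of 64, so no fold is given for RAB21.

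The second dehydrin, rab25, had levels of 6.32 and 5.68 at ZH 4D, 10.62 and 8.84 at ZH 6D, 14.13 and 14.04 at ZH 10D, and 15.06 and 14.20 at ZH 12D. None of these 4 ages overlapped with another. The mean was 14.36 at the late ages and 7.86 at the early ages, a difference of 6.50 (standard error 0.77) or 90.3-fold. This difference was 6.13 on the arrays of replicate 1 and 6.86 on those of replicate 2. It was 6.71 with a pseudocount of 1 and 6.04 with one of 64, so the fold depends on the pseudocount.

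LEA19 was at 8.29 and 9.24 in ZH 4D, 11.60 and 11.85 in ZH 6D, 13.72 and 14.36 in ZH 10D, and 14.28 and 14.32 in ZH 12D. Its late level exceeded its early level by the smallest amount among the 4 genes, 3.92 (standard error 0.81) or 15.1-fold. Emp1 was at 8.09 and 7.03 in ZH 4D, 11.15 and 12.15 in ZH 6D, 14.92 and 15.23 in ZH 10D, and 15.69 and 15.01 in ZH 12D. Its late level exceeded its early level by 5.61 (standard error 0.78) or 48.8-fold. For both genes the arrays of ZH 10D and ZH 12D overlapped and all earlier ages stood apart.

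**Figure D1:**
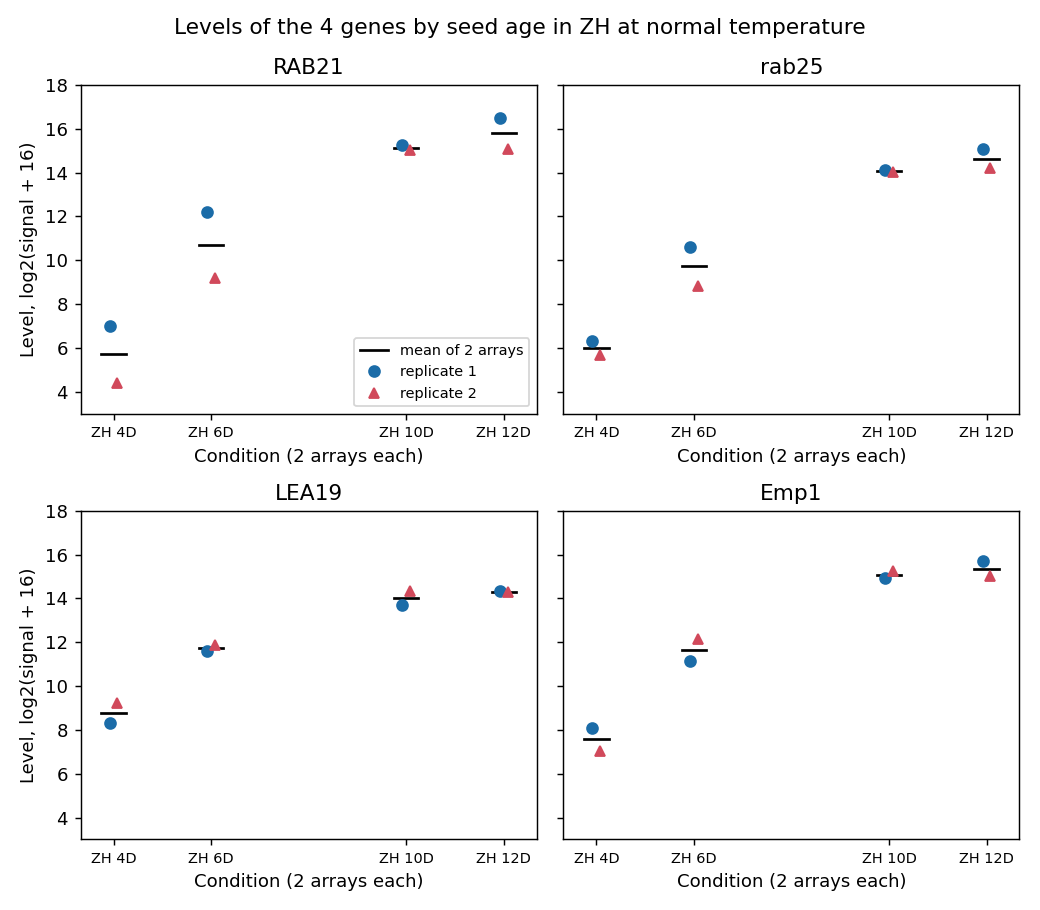
Level of each gene, as log2(signal + 16), at 4, 6, 10 and 12 days after fertilization in ZH seeds at normal temperature, with the 2 arrays of each age as points and their mean as a bar. The 2 ages at or past 10 days lie above both earlier ages for all 4 genes, and RAB21 spreads widest, with 12.21 and 9.21 at ZH 6D.

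Most of the change lay before 10 DAF. Between ZH 6D and ZH 4D the 4 differences were 2.96 to 5.0, between ZH 10D and ZH 6D they were 2.31 to 4.42, and between ZH 12D and ZH 10D 0.26 to 0.66. At ZH 10D and ZH 12D the 4 genes had percentiles of 98.9 to 99.9 within their arrays. Whether signals this high limited the last step was not tested. Neighbouring ages share arrays, so these steps are not independent. All 4 genes had no overlap between late and early arrays, which held in the higher direction for 4.88% of all probe sets tested. The same was true of all 4 genes at ZH 6D against ZH 4D (10.9% of all probe sets) and at ZH 10D against ZH 6D (13.9%). These comparisons belong to the levels by which the genes were chosen, and nothing is read from the counts. Genes of the starchy endosperm were also compared between ZH 6D and ZH 4D. At more than 2-fold and a p below 0.05 before adjustment, 6 of 14 were higher at ZH 6D (1.24% of all probe sets). The median difference was 1.20, and none of the 14 passed an adjusted p under 0.05. Their mean level was 13.07 and 9.10 at ZH 4D, against 14.4 and 12.94 at ZH 6D, so the difference was wider on replicate 2. The storage protein genes PROLM25, GLUA1 and GLUD1, named after their values were seen, had differences of 7.80, 6.57 and 5.91 there, and their part in the LEA levels was not tested.

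Ordered by mean over all 8 conditions, ZH 4D was the lowest and HF 4D the next lowest for each of the 4 genes, and ZH 10D, ZH 12D and ZH 10D-2DC were the 3 highest in that order. The 3 conditions in between, ZH 6D, ZH 4D-2DC and HF 4D-2DC, changed places from gene to gene, and every pair of neighbours among them had overlapping arrays. The condition means of the 4 genes followed each other closely, with Pearson correlations of 0.96 to 0.99 over the 8 conditions for the 6 pairs of genes. These points share arrays and the choice of genes, and the values are descriptive.

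After 2 days at 14°C from 4 DAF, each gene differed from untreated ZH seeds of the same age by less than its standard error. Changes as large as the standard errors could not be told from none. RAB21 had levels of 11.01 and 11.41 in ZH 4D-2DC, against 12.21 and 9.21 in ZH 6D, a difference of 0.50 (standard error 1.75). Emp1 had 11.13 and 13.43 in ZH 4D-2DC, against 11.15 and 12.15 in ZH 6D, a difference of 0.63 (standard error 1.11). The arrays overlapped for both.

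The other 2 genes had lower means after treatment, again within the spread. The dehydrin rab25 had 8.37 and 9.20 in ZH 4D-2DC, against 10.62 and 8.84 in ZH 6D, a difference of -0.94 (standard error 1.09). LEA19 had 10.29 and 12.29 in ZH 4D-2DC, against 11.60 and 11.85 in ZH 6D, a difference of -0.43 (standard error 1.14). The sign of the difference changed with the replicate for RAB21, rab25 and LEA19: on the arrays of replicate 1 these 3 were -1.20, -2.25 and -1.30, and on those of replicate 2 they were 2.20, 0.36 and 0.44.

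The same treated seeds can be set against seeds at the start of the treatment. ZH 4D-2DC exceeded ZH 4D by 5.50 for RAB21, 2.79 for rab25, 2.53 for LEA19 and 4.72 for Emp1, with no overlap of arrays for any of the 4 (11.7% of all probe sets tested were higher without overlap). ZH 6D exceeded the same ZH 4D arrays by 5.0, 3.73, 2.96 and 4.09 for these genes. Both sets of differences use the ZH 4D arrays, so they are given side by side only. Of the 14 endosperm genes, 4 were higher in ZH 4D-2DC than in ZH 4D at the same 2-fold and unadjusted p limits (0.967% of all probe sets). None of the 14 passed an adjusted p under 0.05. The median difference over the 14 was 0.61, and PROLM25 and GLUA1 differed by 6.44 and 5.31. The mean of the 14 was 13.7 and 12.73 in ZH 4D-2DC, against 13.07 and 9.10 in ZH 4D, so the difference was again wider on replicate 2. The part of the endosperm genes in the LEA differences was not tested.

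After 2 days at 14°C from 10 DAF the differences of the 4 genes from ZH 12D were also below their standard errors. In ZH 10D-2DC the 4 genes had percentiles of 99.32 to 99.96 within their arrays. Whether signals this high limited a further change was not tested. RAB21 had 17.28 and 15.36 in ZH 10D-2DC, against 16.50 and 15.09 in ZH 12D, a difference of 0.53 (standard error 1.75). For rab25 the levels were 15.09 and 14.25 in ZH 10D-2DC, against 15.06 and 14.20 in ZH 12D, a difference of 0.04 (standard error 1.09). In both dehydrins the replicate 1 array was the higher one in either condition, and the groups overlapped.

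LEA19 had 15.03 and 14.33 in ZH 10D-2DC, against 14.28 and 14.32 in ZH 12D, a difference of 0.38 (standard error 1.14). Its arrays did not overlap, but the lower treated array lay above the higher untreated one by less than the gap between the treated arrays, and 12.8% of all probe sets tested were higher without overlap. Emp1 had 16.39 and 15.22 in ZH 10D-2DC, against 15.69 and 15.01 in ZH 12D, a difference of 0.45 (standard error 1.11), with overlap. The response to treatment from 10 DAF minus that from 4 DAF was 0.03 for RAB21 (standard error 2.47), 0.98 for rab25 (1.54), 0.81 for LEA19 (1.61) and -0.17 for Emp1 (1.57).

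**Figure D2:**
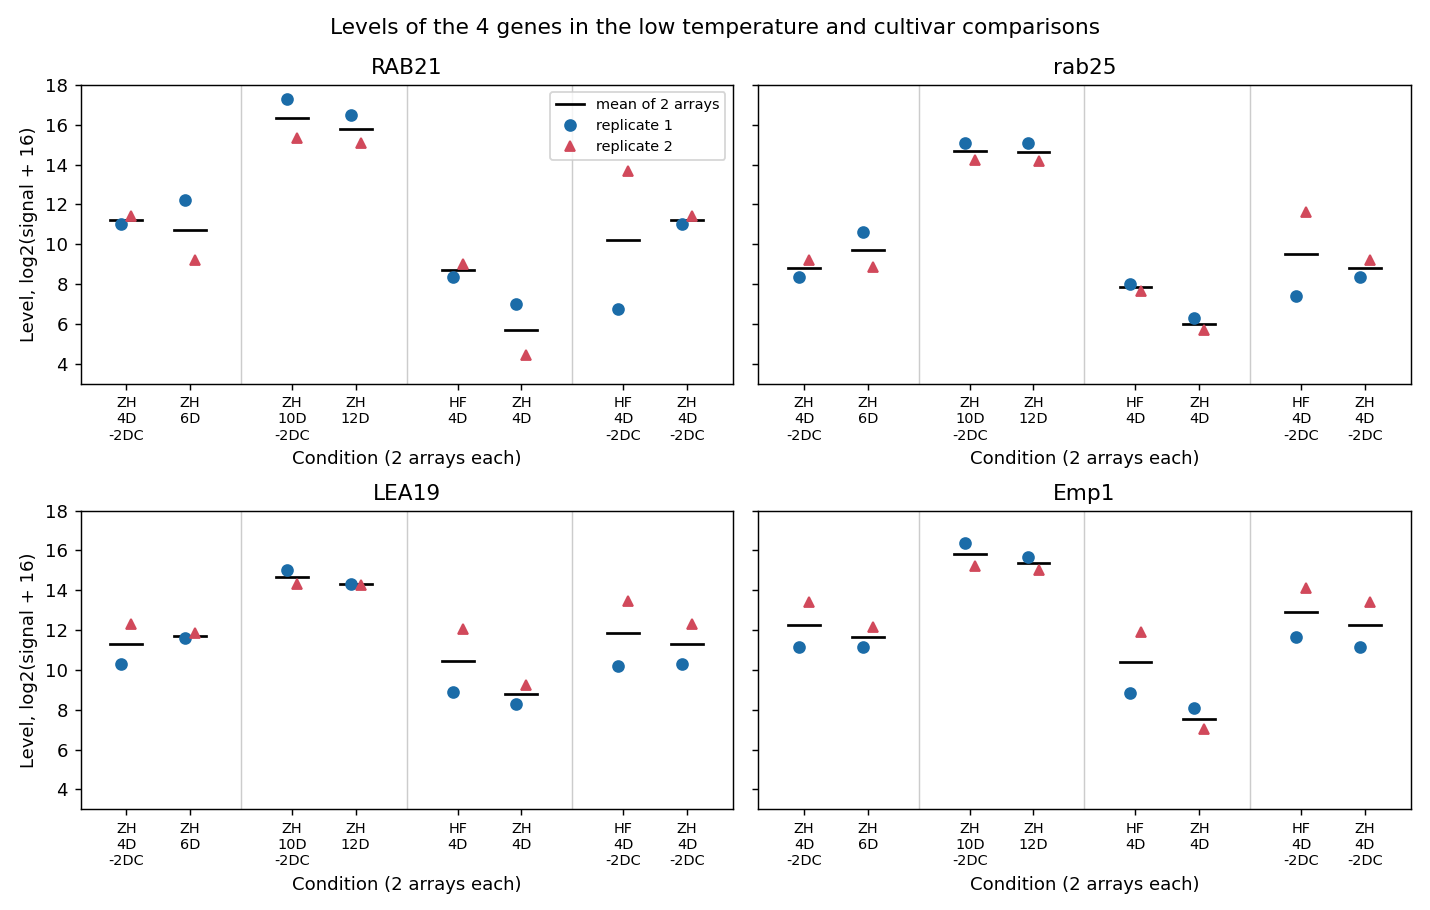
Level of each gene, as log2(signal + 16), in 4 pairs of conditions separated by grey lines, with the 2 arrays of each condition as points and their mean as a bar. The 2 low temperature pairs on the left differ in mean by less than the standard error for all 4 genes. HF 4D lies above ZH 4D in mean for all 4 genes, and the 2 arrays of HF 4D-2DC lie far apart, at 6.73 and 13.68 for RAB21.

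At 4 DAF and normal temperature, the means of all 4 genes were higher in HF than in ZH. RAB21 had 8.37 and 9.02 in HF 4D, against 7.01 and 4.42 in ZH 4D, a difference of 2.98 (standard error 1.75), which was 3.89 with a pseudocount of 1 and 2.06 with one of 64. Emp1 had 8.85 and 11.92 in HF 4D, against 8.09 and 7.03 in ZH 4D, a difference of 2.83 (standard error 1.11) or 7.10-fold. Neither gene had overlapping arrays, and in both the gap was wide on replicate 2 (4.60 and 4.90) and narrow on replicate 1 (1.36 and 0.76).

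The gene rab25 had 8.01 and 7.65 in HF 4D, against 6.32 and 5.68 in ZH 4D, a difference of 1.84 (standard error 1.09) that was alike in both replicates, at 1.69 and 1.98. Its linear signals in ZH 4D were low, at 63.7 and 35.1, and the size of the rab25 difference depended on the processing. It was 2.14 with a pseudocount of 1, 1.29 with one of 64 and 1.545 with quantile normalization. LEA19 had 8.87 and 12.05 in HF 4D, against 8.29 and 9.24 in ZH 4D, a difference of 1.69 (standard error 1.14) with overlap. The LEA19 difference was 0.10 without HF 4D replicate 2 and 3.28 without HF 4D replicate 1, that of Emp1 was 1.29 and 4.36 without the same arrays, and that of RAB21 was 1.69 without ZH 4D replicate 2 and 4.28 without ZH 4D replicate 1. The arrays of 3 of the 4 genes did not overlap, and 7.24% of all probe sets tested were higher without overlap. The median difference was 2.33 over the 4 genes and -0.02 over all probe sets. The 4 genes were chosen by their levels in these same conditions, so nothing is read from the count or the median.

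The RAB21 difference depended on the probe set. A second probe set of RAB21, with the suffix s_at where the first has at, had 5.56 and 7.47 in HF 4D, against 7.08 and 5.64 in ZH 4D, a difference of 0.15 (standard error 1.40) with overlap. Its difference between late and early ages in ZH, 5.94 (standard error 0.99), was closer to that of the first probe set. The suffixes of this probe set and of those for rab25 and LEA19 mark probes that match more than 1 transcript, and the part of related transcripts in their signals was not tested.

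Genes of the starchy endosperm and of green tissue were also compared between HF 4D and ZH 4D, and none passed an adjusted p under 0.05. The mean level of 14 endosperm genes, for storage proteins and starch enzymes, was 11.42 and 12.96 in HF 4D and 13.07 and 9.10 in ZH 4D, so that the difference was -1.66 on replicate 1 and 3.86 on replicate 2. At the unadjusted threshold used below, 1 of these 14 was higher (0.903% of all probe sets) and 0 lower (0.973%). The 1 was PROLM25, by 5.58 (standard error 1.87). The 2 with the highest mean, Sbe1, a starch branching enzyme, and GLUB5, a glutelin, differed by -0.99 (standard error 1.22) and 2.23 (standard error 1.74). The 6 tested genes of photosynthesis, a list for green maternal tissue, were higher by a median of 1.51, in 6 of 6 genes, with none past the threshold, and CAB2R and RCABP89, both chlorophyll-binding proteins, differed by 0.94 (standard error 1.43) and 1.79 (standard error 2.17). On the replicate 2 array the mean of these 6 genes was higher than on the replicate 1 array in each of the 8 conditions, for example 12.68 and 11.41 in HF 4D and 11.90 and 9.44 in ZH 4D. The part of endosperm or maternal RNA, or of unequal seed age, in the LEA differences was not tested.

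After low temperature from 4 DAF the arrays of the cultivars overlapped for all 4 genes, and the 2 arrays of HF 4D-2DC disagreed. RAB21 had 6.73 and 13.68 in HF 4D-2DC, against 11.01 and 11.41 in ZH 4D-2DC, and as linear signals 90.0 and 13084 in HF, against 2048 and 2710 in ZH. One HF array lay far below both ZH arrays and the other far above, and the difference of the means was -1.01 (standard error 1.75). The dehydrin rab25 showed the same order, with 7.40 and 11.62 in HF 4D-2DC, against 8.37 and 9.20 in ZH 4D-2DC, a difference of 0.73 (standard error 1.09).

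LEA19 had 10.21 and 13.47 in HF 4D-2DC, against 10.29 and 12.29 in ZH 4D-2DC, a difference of 0.54 (standard error 1.14). Emp1 had 11.68 and 14.10 in HF 4D-2DC, against 11.13 and 13.43 in ZH 4D-2DC, a difference of 0.61 (standard error 1.11). For these 2 genes the replicate 2 array was the higher one in both cultivars.

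In HF 4D-2DC, replicate 1 minus replicate 2 was -6.95 for RAB21, -4.22 for rab25, -3.26 for LEA19 and -2.42 for Emp1 on the log2 scale, and the median size of this gap was 0.86 over all probe sets tested. The RAB21 gap exceeded that of 99.99% of the probe sets and the Emp1 gap that of 92.48%. The mean of the 4 genes was 9.0 and 13.22 on these arrays, while the 14 endosperm genes had 13.56 and 13.08 and the 6 genes of green tissue 9.43 and 12.13. The green tissue mean was higher on replicate 2 in every other condition as well, for example 8.33 and 11.88 in ZH 10D. What set the HF 4D-2DC arrays apart was not tested. HF 4D-2DC exceeded HF 4D by 1.51 for RAB21, 1.68 for rab25, 1.38 for LEA19 and 2.50 for Emp1, with overlap for all 4, and treatment and 2 days of age cannot be told apart in that comparison.

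**Figure D3:**
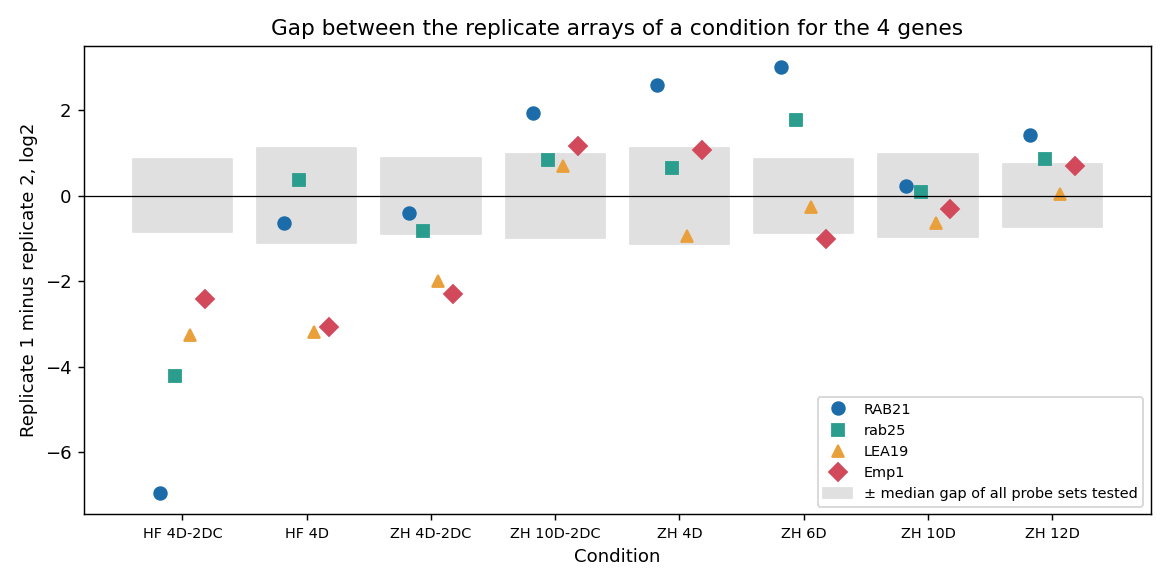
Replicate 1 minus replicate 2, on the log2 scale, for each of the 4 genes in the 8 conditions, with a grey band at plus and minus the median absolute gap of all probe sets tested. The 4 genes lie below the band in HF 4D-2DC, down to -6.95 for RAB21, and inside it in ZH 10D.

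Of the 8 conditions, ZH 10D had the closest arrays for these genes. In ZH 10D the 4 gaps between arrays were 0.09 to 0.64, all below the median gap of 0.97 over all probe sets, whereas in ZH 6D they were 0.26 to 3.0 and in HF 4D 0.36 to 3.18. Replicate 1 minus replicate 2 was -2.0 for LEA19 and -2.3 for Emp1 in ZH 4D-2DC and -3.18 and -3.07 in HF 4D, while for RAB21 it was 2.59 in ZH 4D and 3.0 in ZH 6D. The replicate number thus did not move the 4 genes in 1 direction.

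Of the 4 LEA family genes that were not chosen, the 3 RAB16 dehydrins were higher at the late ages in ZH and Dhn1 was not. RAB16B, RAB16C and RAB16D are dehydrins that lie in a row with RAB21 on chromosome 11 in the RefSeq gene table (assembly ASM3414082v1), with no other protein-coding gene among them. Dhn1, also named LIP9, is a dehydrin known in rice seedlings for its induction by cold. These genes had 6 probe sets, of which 5 passed the filter and were tested by limma across all 34331 probe sets. Calls were made at more than 2-fold and a p below 0.05, the threshold that the study's methods give for low temperature genes, taken here before adjustment and for every comparison. For time course genes the methods ask for a p below 0.001.

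RAB16B had 12.04 and 12.57 at ZH 10D and 12.94 and 12.81 at ZH 12D, against 7.02 and 6.06 at ZH 4D and 9.10 and 7.62 at ZH 6D. All late arrays lay above all early ones, and the difference was 5.14 (standard error 0.62, adjusted p = 0.00251 by limma) or 35.3-fold. RAB16C had 10.45 and 11.53 at ZH 10D and 11.27 and 11.63 at ZH 12D, against 7.19 and 4.55 at ZH 4D and 7.67 and 7.81 at ZH 6D, likewise without overlap. Its difference was 4.41 (standard error 0.63, adjusted p = 0.00549 by limma). The RAB16C mean of 5.87 at ZH 4D lay under the filter level of 5.94, so no fold is given for it.

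RAB16D had 9.02 and 7.76 at ZH 10D and 8.60 and 7.93 at ZH 12D, against 7.42 and 4.40 at ZH 4D and 7.64 and 4.60 at ZH 6D. The replicate 1 array was above the replicate 2 array at every age, and the difference was 2.31 (standard error 0.99, adjusted p = 0.377 by limma, 0.0363 before adjustment), at 1.28 on replicate 1 and 3.35 on replicate 2. With the replicate number as a block its adjusted p was 0.0366 by limma. This change passed the 2-fold threshold with all arrays, but not without ZH 10D or ZH 12D replicate 1, or without ZH 4D, ZH 6D or ZH 12D replicate 2. The probe set of Dhn1 with the highest mean had 8.89 and 12.40 at ZH 10D and 9.0 and 10.71 at ZH 12D, against 9.95 and 12.69 at ZH 4D and 9.50 and 11.07 at ZH 6D. It differed by -0.55 (standard error 1.06, adjusted p = 0.924 by limma), with overlap.

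At the 2-fold threshold 3 of the 5 probe sets tested were higher late in ZH, where 6.08% of all probe sets were, and 0 were lower, where 5.09% were. At a p below 0.001 before adjustment 2 of the 5 were higher, RAB16B and RAB16C, where 1.03% of all probe sets were. At an adjusted p under 0.05 the count was 2 of 5, where 0.859% of all probe sets were higher. With 1 probe set a gene, that of the highest mean, the median difference over the 4 genes was 3.36, against -0.01 over all probe sets. RAB21 and the RAB16 genes are close relatives, and how far their probe sets read each other's transcripts was not tested.

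**Figure D4:**
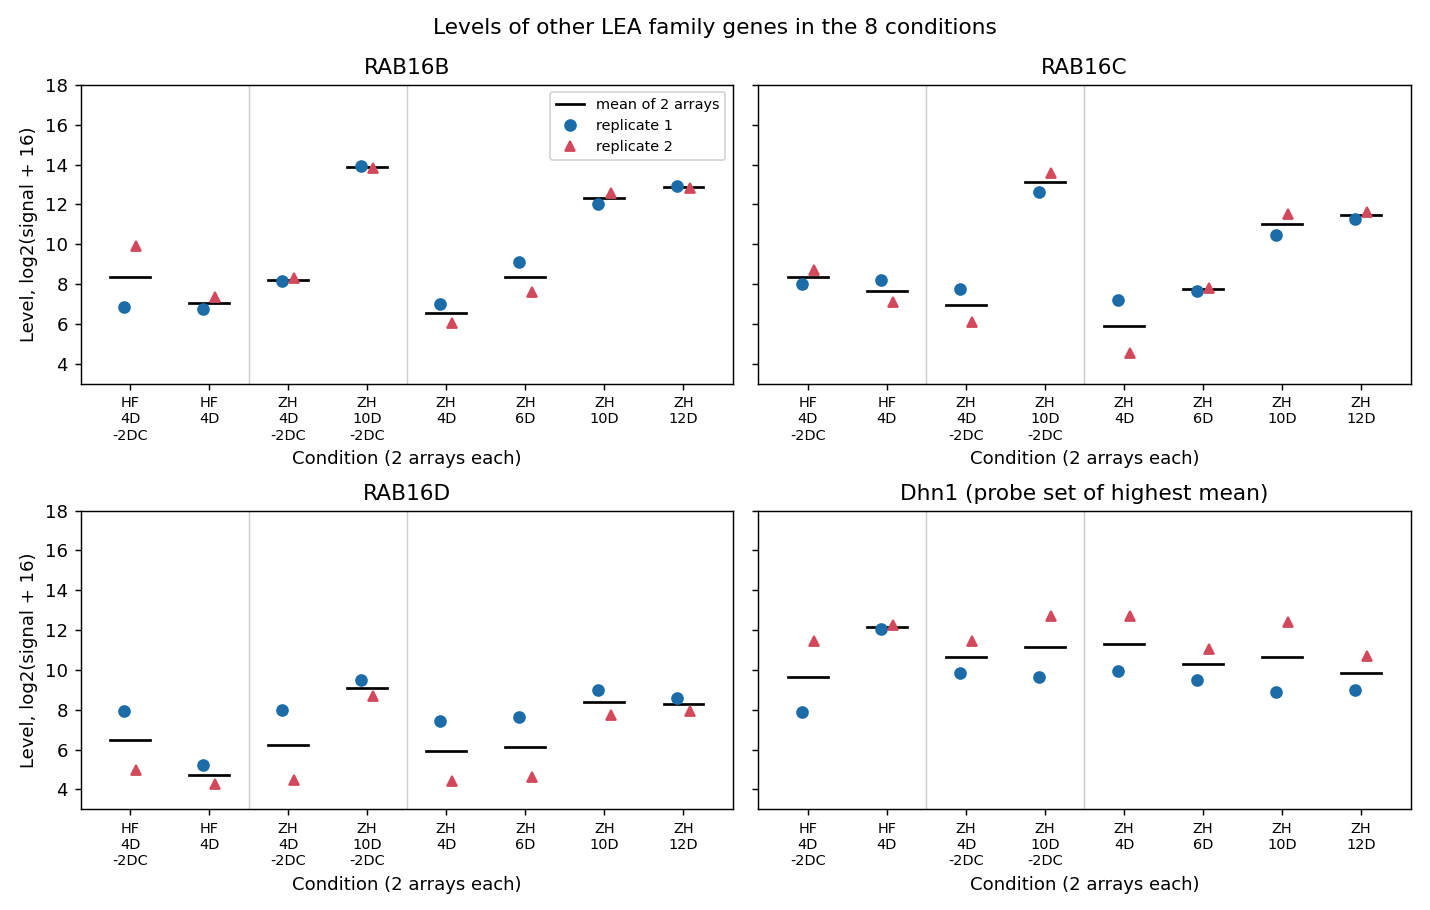
Level of RAB16B, RAB16C, RAB16D and Dhn1, as log2(signal + 16), in the 8 conditions, with the 2 arrays of each condition as points and their mean as a bar. RAB16B and RAB16C are highest in ZH 10D, ZH 12D and ZH 10D-2DC, while Dhn1 shows no such step and its replicate 2 array is the higher one in each condition.

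Between ZH 10D and ZH 6D, 2 of the 5 were higher at the 2-fold threshold (2.1% of all probe sets), RAB16B by 3.94 (standard error 0.88, adjusted p = 0.602 by limma) and RAB16C by 3.25 (adjusted p = 0.928 by limma). In the low temperature comparisons with ZH 6D and ZH 12D and in the 2 comparisons of cultivars, no probe set of the other LEA genes passed the threshold. After treatment from 4 DAF, 0 of 5 were higher (0.647% of all probe sets) and 0 lower (0.562%) than in ZH 6D, with differences of 0.34 for Dhn1 (standard error 1.49) and -0.14 for RAB16B (standard error 0.88). After treatment from 10 DAF, 0 of 5 were higher (1.06%) and 0 lower (1.45%) than in ZH 12D. All 5 differences were positive there, with 1.31 for Dhn1 (standard error 1.49) and 1.0 for RAB16B (standard error 0.88). The arrays did not overlap for RAB16B, RAB16C or RAB16D and did for Dhn1, and 12.8% of all probe sets tested were higher without overlap. RAB16C, named after its values were seen, had 12.65 and 13.57 in ZH 10D-2DC, against 11.27 and 11.63 in ZH 12D, a difference of 1.66 (standard error 0.89, adjusted p = 1.0 by limma, 0.0847 before adjustment), without overlap. In ZH 10D-2DC against ZH 10D, where treatment and 2 days of age cannot be told apart, RAB16C was higher by 2.12 (adjusted p = 1.0 by limma, 0.0332 before adjustment) and was the 1 of 5 past the threshold (0.83% of all probe sets).

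Between the cultivars, 0 of 5 were higher in HF 4D than in ZH 4D (0.903% of all probe sets) and 0 lower (0.973%). The differences were 0.84 for Dhn1 (standard error 1.49) and 0.51 for RAB16B (standard error 0.88). Among treated seeds of the 2 cultivars, HF 4D-2DC had 0 of 5 probe sets above ZH 4D-2DC at the threshold (0.306%) and 0 below (0.99%), at -0.96 for Dhn1 (standard error 1.49) and 0.14 for RAB16B (standard error 0.88). On the HF 4D-2DC arrays RAB16B was also higher on replicate 2, with 6.82 and 9.90. RAB16C was at 8.02 and 8.69 on them, and RAB16D went the other way, at 7.92 and 5.0. The Dhn1 probe set of highest mean had 7.90 and 11.43 there, but its replicate 2 array was the higher one in every condition, with 8.89 and 12.40 in ZH 10D. The lowest unadjusted p among these 5 probe sets was 0.0693 between HF 4D and ZH 4D, for RAB16C, whose difference was 1.76 (adjusted p = 1.0 by limma), and 0.13 in the treated seeds, also for RAB16C.

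**Figure D5:**
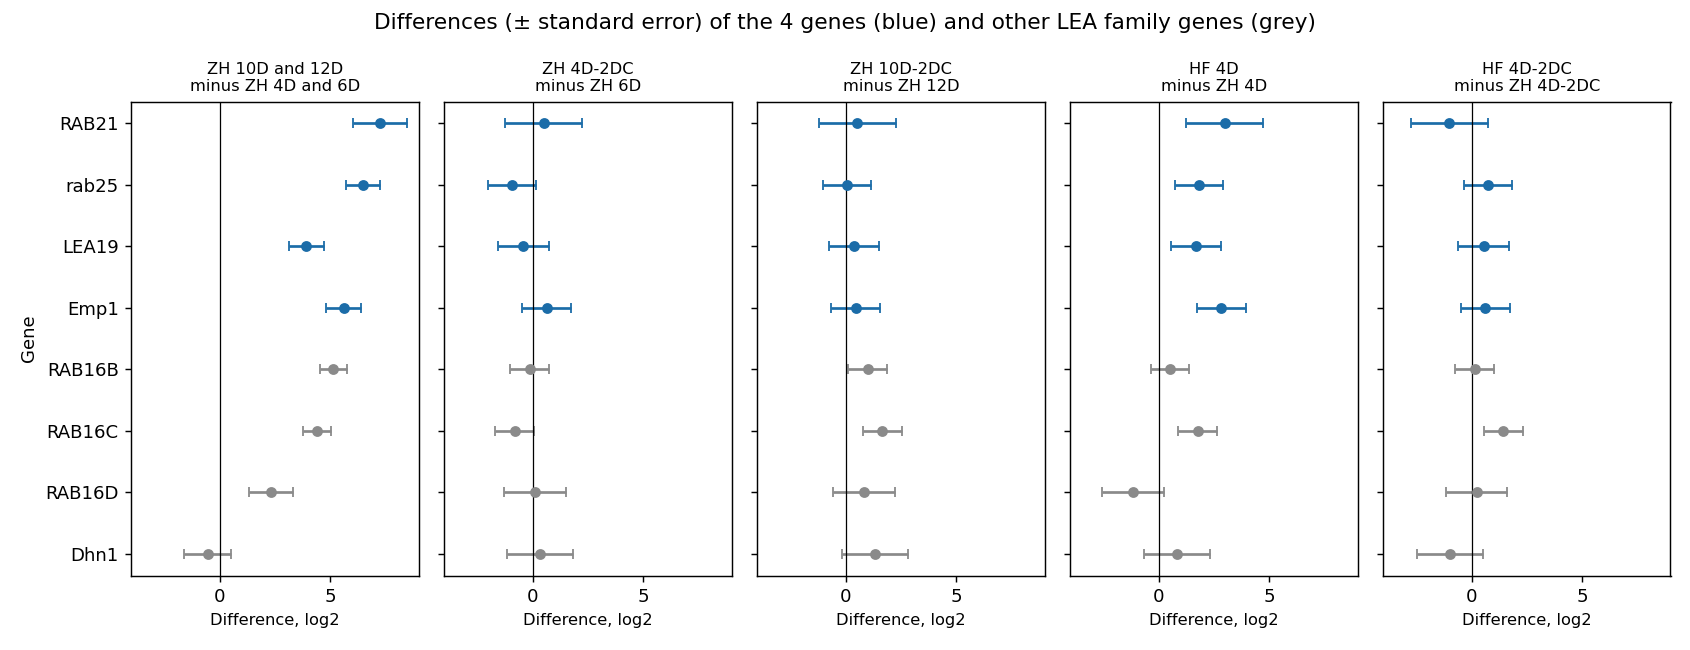
Difference in level, on the log2 scale, with its standard error, for RAB21, rab25, LEA19 and Emp1 (blue, with no test) and for 4 other LEA family genes (grey), in 5 comparisons of conditions named above each panel. The age comparison on the left holds the differences over 3, up to 7.25 for RAB21, and in the 2 low temperature comparisons the 4 blue points lie between -0.94 and 0.63.

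VP1, the seed transcription factor that activates LEA genes together with ABA, and TRAB1, a bZIP factor that binds VP1 and ABA response elements, were measured beside them. VP1 passed the 2-fold threshold, but not a p below 0.001, in the age comparison and was higher late in ZH by 2.42 (standard error 0.78, adjusted p = 0.203 by limma, 0.00886 before adjustment), and TRAB1 differed by -0.39 (standard error 0.44). Neither passed the threshold after low temperature, where VP1 differed by -0.34 in ZH 4D-2DC against ZH 6D (standard error 1.11) and 0.04 in ZH 10D-2DC against ZH 12D (standard error 1.11). Of the cold acclimation list, which holds membrane proteins and DREB1 transcription factors, 4 genes were tested and 0 passed in either low temperature comparison. Of all probe sets, 0.647% were higher and 0.562% lower from 4 DAF, and 1.06% and 1.45% from 10 DAF. The small membrane proteins LTI6B and LTI6A had differences of 1.11 ± 0.75 and 1.25 ± 1.63 (± standard error) after treatment from 10 DAF. From 4 DAF they had 0.17 and 0.11. DREB1A and DREB1B differed by 1.35 and -0.55 after treatment from 10 DAF.

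Of 14 endosperm genes tested, 13 had a higher mean at the late ages in ZH, with a median difference of 1.25. The mean over the 14 genes differed by 0.76 on replicate 1 and 2.28 on replicate 2. None passed an adjusted p under 0.05. At the 2-fold threshold 3 were higher (6.08% of all probe sets) and 0 lower (5.09%). The 3 were the storage protein genes PROLM25, by 4.25 (standard error 1.32), GLUA1, by 3.76 (standard error 1.29), and GLUD1, by 3.56 (standard error 1.41), while Sbe1 and GLUB5 differed by 0.55 (standard error 0.86) and 1.80 (standard error 1.23). The 6 genes of green tissue had a median of -0.60, with none past the threshold. The part of a changing share of tissues in the LEA levels was not tested.

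Among 2243 named genes outside the LEA family, the 5 whose condition means were most like the mean standardized profile of the 4 genes were ETR4, ACA10, OsWOX6, OC-III and OsCASPL5A1, with Pearson correlations of 0.99 or more over the 8 conditions except OsCASPL5A1, at 0.986. ETR4, a member of the ethylene receptor family, was at 5.16, 8.24, 10.60 and 11.05 in ZH 4D, 6D, 10D and 12D, 7.88 in ZH 4D-2DC and 11.18 in ZH 10D-2DC. ACA10, a calcium-pumping ATPase, OC-III, a cystatin that inhibits cysteine proteases, and OsCASPL5A1, a membrane protein, spanned narrower ranges, of 9.28 to 10.94, 12.07 to 14.16 and 10.13 to 12.02. OsWOX6, a homeobox transcription factor of the WOX family, was at 5.56 in ZH 4D and 9.14 in ZH 10D-2DC. Of the other LEA probe sets, RAB16B had a correlation of 0.97, RAB16C of 0.95 and RAB16D of 0.90. The Dhn1 probe set of highest mean had -0.39 and the second probe set of Dhn1 had 0.50.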

How the data were processed

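RNA of whole rice seeds was measured on 16 arrays. The deposited values are linear signal intensities that the authors made with MAS5 (version not stated), scaled so that the 2% trimmed mean was 500 on every array. The methods name GC-RMA for the study's own tests, so the intensities used here were summarised differently. All levels are log2(signal + 16). After removal of 187 control probe sets and of those below the 40th percentile of mean level, 34331 of 57381 remained. They were tested by limma 3.58.1 (functions lmFit and eBayes, two-sided) in R 4.3.3, with 1 coefficient for each condition over all 16 arrays. Calls used the threshold that the methods give for low temperature genes (p under 0.05, over 2-fold), here on unadjusted p and in all comparisons, or the methods' p under 0.001 for time course genes, chosen after seeing the data, or a Benjamini-Hochberg adjusted p over all probe sets. The fit was tested on simulated data. Tables and figures were made with Python 3.11.15, pandas 2.3.3 and matplotlib 3.10.9.

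The 4 genes and all lists were chosen with earlier results of these data known. LEA genes were found by symbol or synonym, because gene descriptions were not used here, and LEA genes without such a name are not analysed here. The probe annotation paired 22436 probe sets with 1 gene. The 4 genes were always named. Of the other LEA probe sets, those with the largest change past the 2-fold threshold were named in each comparison, up to 3 in each direction, or the 2 of highest mean where none passed. Of other lists the 2 genes of highest mean were named, with some further genes after their values were seen, and for likeness the 5 named genes of highest correlation. The oil body list held 1 gene, with no probe set in the annotation used. Replicate numbers were not taken to pair arrays, since the labels tie them to no shared plant or day. Alternatives were pseudocounts of 1 and 64, no filter, quantile normalization, a replicate block, leaving out each array, the within-array percentile and another probe set of the same gene. With 2 arrays a condition, their number limits the precision.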

Additional observations from a re-analysis of the deposited data

How the results depend on the processing

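At the 2-fold threshold, the count of other LEA probe sets higher at ZH 10D and ZH 12D than at ZH 4D and ZH 6D, 3 of 5, was 2 to 3 when an array was left out, 2 with a pseudocount of 1 and 3 under the remaining settings. RAB16D was the one lost. The count at an adjusted p under 0.05 was 2 throughout, except for 3 with the replicate block. For treatment from 10 DAF in ZH the count of 0 became 1 with a pseudocount of 64, 1 with quantile normalization (RAB16C in both) and 0 to 1 when an array was left out (1 without ZH 12D replicate 2, for the second probe set of Dhn1). In HF 4D against ZH 4D it became 1 with quantile normalization and 0 to 1 when an array was left out (1 without ZH 4D replicate 1), for RAB16C in both. No other LEA probe set was called in ZH 4D-2DC against ZH 6D or in HF 4D-2DC against ZH 4D-2DC under the settings run.

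The arrays of a replicate number deviated together: the gaps between replicates correlated at 0.22 to 0.64 in all 28 pairs of conditions. The numbers are only 2 and no label ties them to a plant or day, so the block was not part of the main design. With the replicate block the calls over all probe sets at ZH 10D and 12D against ZH 4D and 6D were 2944 higher and 2605 lower, against 2086 and 1746 without it, and in ZH 10D-2DC against ZH 12D they were 954 and 1122, against 363 and 498.

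Leaving out the filter or adding the replicate block cannot change a difference of means in this design, though both settings are counted among the alternatives below. For RAB21, rab25, LEA19 and Emp1 the differences with age and between HF 4D and ZH 4D kept their sign under every alternative that could change them. The sign turned in 16 of 221 alternatives, all in the low temperature comparisons of ZH or in HF 4D-2DC against ZH 4D-2DC. There the RAB21 difference was -4.49 to 2.46 when an array was left out, and the HF 4D-2DC arrays decided it. Leaving out an array moved the HF 4D against ZH 4D difference to between 0.10 and 3.28 for LEA19 and between 1.29 and 4.36 for Emp1. With the other probe set of RAB21 the HF 4D difference of 2.98 was 0.15.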
